A study of Mus musculus with 6 samples.

Results

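Autophagy genes encode the machinery by which a cell encloses part of its cytoplasm in a double membrane and delivers it to lysosomes. They were examined in mouse peritoneal macrophages exposed to a ligand of TLR3 or of TLR2. The genes were chosen by symbol: every symbol that begins with Atg and a digit, and a set of named partners from Ulk1 to Rb1cc1. Of these, 35 genes had an array probe assigned to a single gene symbol, by 39 probes, out of 19935 genes measured in all. Optn, an autophagy receptor gene also on the list, had no such probe and is not analysed here. A gene with 2 probes was given their mean, which concerned Atg2b, Atg4a, Gabarapl2 and Map1lc3b.

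In the textbook scheme, a kinase complex around ULK1 or ULK2 and ATG13 starts the process, and class III PI3-kinase complexes built on Beclin 1 mark the nascent membrane, the phagophore, with a lipid. ATG9 vesicles, ATG2 and WIPI proteins supply and shape that membrane. A pair of ubiquitin-like conjugation systems then attaches LC3 and GABARAP proteins to it, and cargo receptors such as p62, the product of Sqstm1, bind both the cargo and LC3. In macrophages the pathway degrades intracellular microbes and damaged organelles and is known to restrain inflammasome activity.

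The samples were total RNA of cultured peritoneal macrophages of C57BL/6 mice, with 2 arrays in each of 3 groups. The untreated control group received no ligand. The poly I:C group received 2 ug/mL of this synthetic double-stranded RNA, which activates TLR3, for 24 h. The PAM group received 1 ug/mL of a lipopeptide that activates TLR2, also for 24 h, and the labels call the compound PAMCSK3 in 1 PAM sample and PAMCSK4 in the other. All groups share the strain and culture medium. No culture time is given for the controls, so in comparisons with control the ligand and any difference in culture time cannot be told apart. The labels leave unsaid whether the 2 arrays of a condition represent different mice or cultures. The p-values therefore reflect only how far these arrays scatter, which could be technical scatter. The study's stated question was which genes go up with TLR3 activation and down with TLR2 activation.

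Values are log2 with each probe's median over the 6 arrays already subtracted, so a value shows where an array lies for that gene and not how strongly the gene is expressed. Array medians lay between -0.0049 and 0.0072. The number of arrays limits the precision, and the median standard error (SE) of a difference between groups was 0.07. Differences are given as log2 difference ± SE (n = 2 arrays per group), with p-values from limma adjusted over all 19935 genes by the Benjamini-Hochberg method. A gene is said to rise or fall where this adjusted p was under 0.05. The number steps left in the deposited values were used to class probes as at a log2 level of 8 or above on all arrays. This takes the values as log2 in single precision, and some probes below 8 can meet the rule too. The class held 74.4% of the autophagy probes, against 28.9% of all probes and 2.71% of olfactory receptor probes. By that measure 8 of 10 macrophage markers had at least 1 probe at 8 or above. The same held for 0 of 4 B cell, 0 of 5 neutrophil, 0 of 5 mast cell and 0 of 5 dendritic cell markers. It held for 1 of 4 T cell markers (Cd8a) and 2 of 5 mesothelial and fibroblast markers (Col1a1 and Col1a2). Centred values have no 0 level, so it cannot be said which of these markers were absent. With poly I:C, 3 macrophage markers rose and 4 fell, and with PAM 3 rose and 4 fell. The sum of their centred values lay between 0.79 and 1.52 in controls, 0.03 and 0.11 with poly I:C, and 0.99 and 1.37 with PAM. Of the measured markers of other cells, Cd79b, Ms4a1 and Ccr7 rose and Upk3b fell with both ligands, Col1a1 fell with poly I:C and Camp rose with PAM. The part of these changes in the results below was not tested, and fewer cells of a type and less RNA per cell cannot be told apart.

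With poly I:C, 8 of the 35 autophagy genes rose (22.9%, against 12.1% of all genes) and 8 fell (22.9%, against 18.2%). With PAM, 6 rose (17.1%, against 11.0% of all genes) and 9 fell (25.7%, against 14.0%). These comparisons share the control arrays. Set directly against PAM, poly I:C had 10 genes higher (28.6%, against 12.9% of all genes) and 7 lower (20.0%, against 15.8%). The shares over all genes are not matched for signal level. Of the autophagy probes 74.4% were at 8 or above on all arrays, against 28.9% of all probes. The part of this in the counts was not tested. Changes were mostly small. The median absolute difference was 0.18 with poly I:C, where it was 0.12 over all genes, and 0.20 with PAM, where it was 0.11. With at least a 1.5-fold change also required, 6 of 35 passed with poly I:C, against 2261 of 19935 over all genes. With PAM 3 of 35 did, against 1839 of 19935. The signed medians were -0.01 with poly I:C and -0.17 with PAM, where over all genes they were 0.01 and 0.00. In the direct comparison, counts were lower without poly I:C replicate 1 (6 higher and 4 lower), without PAM replicate 1 (5 and 4) and, for lower genes, without PAM replicate 2 (4).

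**Figure D1:**
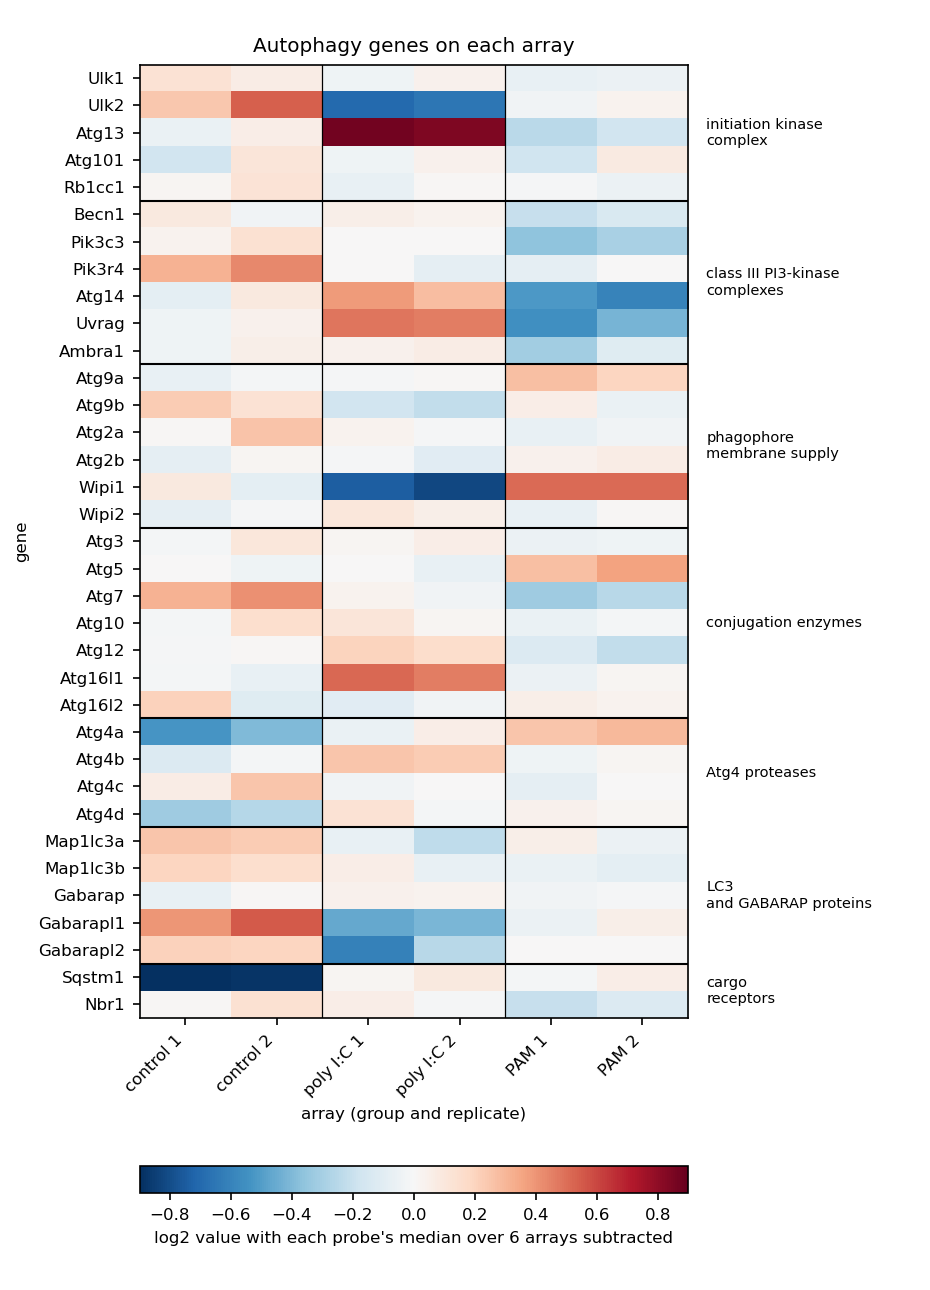
Log2 values, with each probe's median over the arrays subtracted, of 35 autophagy genes (rows, in blocks by role) on 6 arrays (columns); red is above and blue below the median. Sqstm1 is lowest on both control arrays, Atg13, Uvrag and Atg16l1 are highest on both poly I:C arrays, and Wipi1 is lowest with poly I:C and highest with PAM.

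The genes with the largest rise or fall in each comparison were Sqstm1, Ulk2, Atg7, Atg13 and Wipi1, and their promoters are shown for this reason. The letters are the 250 bases before a start listed for each gene in a RefSeq table, in build GRCm38.p6, read along the gene's strand. The windows of Sqstm1 and Wipi1 end where the annotated gene begins, whereas those of Atg7 and Ulk2 lie wholly or mostly within the gene as annotated, the marked Ulk2 match included, and that of Atg13 overlaps it by a few bases. Capitals mark a match to a searched motif.
Sqstm1 (chr11:50210821-50211070, - strand): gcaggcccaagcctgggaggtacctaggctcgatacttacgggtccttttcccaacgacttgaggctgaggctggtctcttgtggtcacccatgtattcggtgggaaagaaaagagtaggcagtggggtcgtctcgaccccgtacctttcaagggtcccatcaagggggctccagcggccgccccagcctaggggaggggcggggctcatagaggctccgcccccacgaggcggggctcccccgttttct
Atg13 (chr2:91710593-91710842, - strand): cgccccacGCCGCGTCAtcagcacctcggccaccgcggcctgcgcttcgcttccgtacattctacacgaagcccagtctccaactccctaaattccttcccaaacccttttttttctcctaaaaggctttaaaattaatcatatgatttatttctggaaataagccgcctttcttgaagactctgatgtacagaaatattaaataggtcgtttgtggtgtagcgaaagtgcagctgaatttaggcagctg
Wipi1 (chr11:109611390-109611639, - strand): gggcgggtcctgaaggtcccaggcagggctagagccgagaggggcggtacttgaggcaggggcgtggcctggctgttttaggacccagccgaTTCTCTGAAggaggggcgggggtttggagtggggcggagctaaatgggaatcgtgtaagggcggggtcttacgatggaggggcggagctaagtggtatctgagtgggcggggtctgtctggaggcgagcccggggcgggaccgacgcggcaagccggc
Ulk2 (chr11:61855093-61855342, - strand): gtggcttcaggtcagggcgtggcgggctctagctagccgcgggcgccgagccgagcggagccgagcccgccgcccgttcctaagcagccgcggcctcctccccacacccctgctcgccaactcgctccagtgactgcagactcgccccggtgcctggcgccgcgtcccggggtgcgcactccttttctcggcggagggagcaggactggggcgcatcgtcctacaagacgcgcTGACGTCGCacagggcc
Atg7 (chr6:114670846-114671095, + strand): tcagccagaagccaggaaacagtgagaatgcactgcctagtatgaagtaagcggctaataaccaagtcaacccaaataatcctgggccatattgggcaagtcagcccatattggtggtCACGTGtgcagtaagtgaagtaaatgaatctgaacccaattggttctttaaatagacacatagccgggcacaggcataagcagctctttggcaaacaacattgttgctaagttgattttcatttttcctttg

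Each motif was searched on both strands in the 250 bases of 29 members with a listed promoter and of all 27025 genes in the table. The interferon-stimulated response element, 2 copies of GAAA with any 2 bases between them, was in 0 of 29 member promoters and in 3.46% of all genes. The gamma-activated site TTCNNNGAA, bound by STAT factors, was in 4 of 29 (8.13% of all genes): Wipi1, Gabarapl1, Gabarap and Nbr1. The E-box CACGTG was in 3 of 29 (6.86%), namely Atg7, Atg5 and Atg3. The antioxidant response element core TGACNNNGC was in Atg13 and Ulk2, 2 of 29 (11.5%), the NF-kB site (GGG, any 2 bases, then TTTCC) in Wipi2, 1 of 29 (1.65%), and the forkhead site TAAACA in Gabarapl1, Ambra1 and Atg4a, 3 of 29 (13.5%). None of the 6 motifs matched in the Sqstm1 window, and 0 matches overlapped another in the members. The matches of Nbr1 and Atg5, like those of Atg7 and Ulk2, lie within the gene as annotated. A match describes letters and not binding.

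Sqstm1 encodes p62, a cargo receptor that gathers ubiquitin-marked material, and it rose with both ligands to a similar value. It stood at -0.90 and -0.88 on the control arrays, 0.02 and 0.09 with poly I:C, and -0.02 and 0.06 with PAM. Both control arrays thus lay far below all 4 ligand arrays, which overlapped each other. The rise was 0.94 ± 0.07 with poly I:C (1.92-fold, adjusted p = 6.68e-06) and 0.91 ± 0.07 with PAM (1.88-fold, adjusted p = 9.66e-06). Between the ligands the difference was 0.03, with a 95% interval from -0.12 to 0.18. The other cargo receptor measured, Nbr1, which shares domains with p62, passed in 1 of the 3 comparisons. It stood at 0.01 and 0.14 in controls, 0.06 and -0.01 with poly I:C, and -0.21 and -0.12 with PAM. The PAM arrays were below all others, and Nbr1 fell with PAM by 0.24 on the log2 scale (adjusted p = 0.0449). That call ended in the fit of the 4 control and PAM arrays (adjusted p = 0.0714), which leaving out either poly I:C array repeats. It also ended without control replicate 2 (difference -0.17), PAM replicate 1 (-0.20) or PAM replicate 2 (-0.28).

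**Figure D2:**
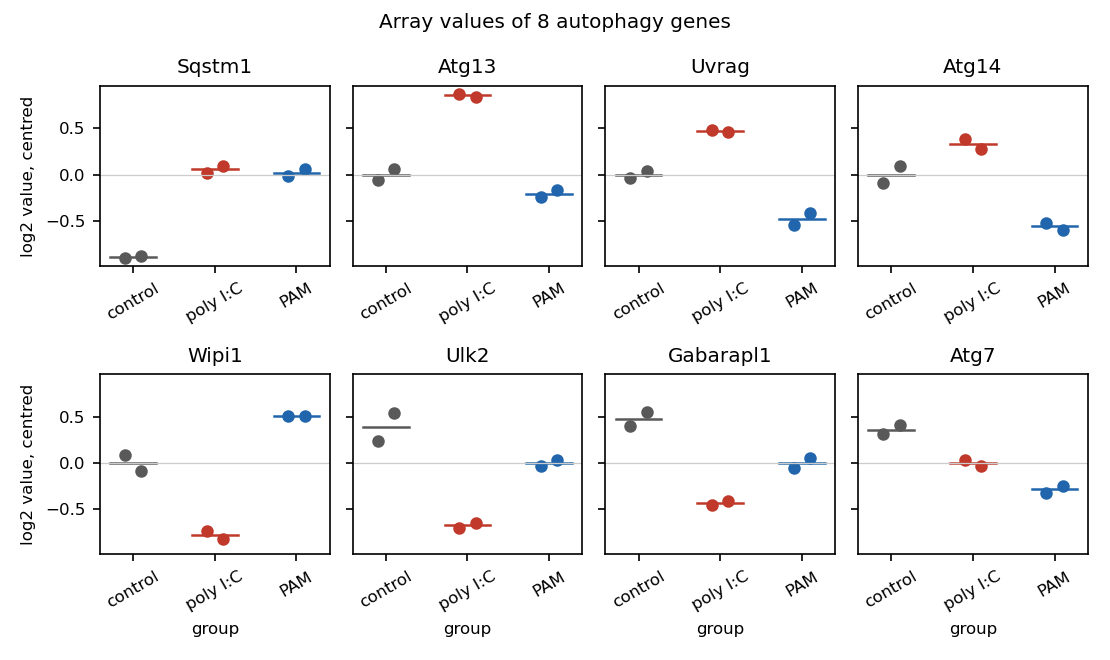
Centred log2 values of 8 autophagy genes by group; points are single arrays (replicates 1 and 2) and lines are group means. Sqstm1 is near -0.9 in controls and near 0 with either ligand, while Uvrag and Atg14 are above control with poly I:C and below it with PAM and Wipi1 is the reverse.

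In the kinase complex that starts autophagy, Atg13 rose and Ulk2 fell with poly I:C, and the other 3 genes passed in no comparison. Atg13 encodes the adaptor that holds the ULK kinase to its partners. It was at -0.06 and 0.06 in controls, 0.87 and 0.84 with poly I:C, and -0.24 and -0.17 with PAM. The groups did not overlap, with poly I:C far above and PAM slightly below control. The rise with poly I:C was 0.85 ± 0.07 (1.81-fold, adjusted p = 1.71e-05), and the difference with PAM was -0.20 ± 0.07 (adjusted p = 0.0668; 0.0392 without control replicate 1). Directly, Atg13 was 2.08-fold higher with poly I:C than under PAM (1.06 ± 0.07, adjusted p = 3.92e-06). Ulk2, a kinase gene related to Ulk1, stood at 0.24 and 0.54 in controls, -0.70 and -0.65 with poly I:C, and -0.03 and 0.03 with PAM. Its control arrays were the highest, though they differed by more than the arrays of either ligand. Ulk2 fell with poly I:C by 1.06 on the log2 scale (SE 0.10, control 2.09-fold higher, adjusted p = 3.22e-05), the only autophagy gene changed by at least 2-fold from control. It fell less with PAM (-0.39 ± 0.10, adjusted p = 0.0157), a call that ended without control replicate 2 (-0.24, adjusted p = 0.0601), PAM replicate 1 (0.0977) or PAM replicate 2 (0.0516). The difference between the ligands was -0.67 ± 0.10 (adjusted p = 0.000611). Ulk1, the better known kinase, differed from control by -0.10 with poly I:C and -0.16 with PAM, Rb1cc1, the scaffold of the complex, by -0.10 with each, and Atg101, the partner of Atg13, by 0.03 and -0.02.

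Of the 6 class III PI3-kinase genes, 4 fell with PAM (14.0% of all genes fell) and none rose by limma, and with poly I:C 2 rose and 1 fell (12.1% and 18.2% of all genes). Directly, 5 of the 6 were higher with poly I:C (12.9% of all genes). Uvrag and Atg14 encode alternative partners of Beclin 1: the ATG14 complex acts at the phagophore, and the UVRAG complex acts in endosome and autophagosome maturation. Uvrag stood at -0.04 and 0.04 in controls, 0.48 and 0.46 with poly I:C, and -0.55 and -0.42 with PAM. The groups lay in 3 separate ranges. It rose with poly I:C (0.47 ± 0.07, adjusted p = 0.000944) and fell with PAM (-0.49 ± 0.07, adjusted p = 0.000973), and the ligands differed 1.94-fold (0.96 ± 0.07, adjusted p = 9.75e-06). Atg14 stood at -0.09 and 0.09 in controls, 0.38 and 0.28 with poly I:C, and -0.52 and -0.60 with PAM, again with no overlap between groups. It rose with poly I:C (0.33 ± 0.08, adjusted p = 0.013) and fell with PAM (-0.56 ± 0.08, adjusted p = 0.000794). Atg14 was 1.85-fold higher with poly I:C than under PAM (0.89 ± 0.08, adjusted p = 3.33e-05). Its rise with poly I:C did not pass without control replicate 1 (0.24, adjusted p = 0.0572) or poly I:C replicate 1 (0.28, adjusted p = 0.101), and its probe was not at 8 or above on all arrays.

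The lipid kinase itself, Pik3c3 (VPS34), stood at 0.03 and 0.14 in controls, 0.00 on both poly I:C arrays, and -0.36 and -0.29 with PAM. The groups lay in 3 separate ranges, with poly I:C just below control and PAM lowest. Pik3c3 fell with PAM (-0.41 ± 0.07, adjusted p = 0.00204) and differed by -0.08 with poly I:C (adjusted p = 0.441). Pik3r4, the regulatory subunit bound to it, stood at 0.31 and 0.43 in controls, 0.00 and -0.08 with poly I:C, and -0.08 and 0.00 with PAM. Here both ligands gave the same range below control, and the fall was -0.41 ± 0.07 with each (adjusted p = 0.00233 with poly I:C and 0.00282 with PAM). Becn1, the gene of Beclin 1, differed by 0.02 with poly I:C and by -0.20 with PAM (adjusted p = 0.0661; 0.0421 without control replicate 2, 0.0351 after quantile normalization). Ambra1, an activator of Beclin 1, differed by 0.05 and -0.22 (adjusted p with PAM 0.0934; 0.0458 without PAM replicate 2). Both were higher with poly I:C than under PAM, Becn1 by 0.22 (adjusted p = 0.0443) and Ambra1 by 0.27 (adjusted p = 0.0372), as was Pik3c3 by 0.32 (adjusted p = 0.0063). Becn1 did not pass without any 1 of the 4 ligand arrays, where its difference was 0.19 to 0.25 (adjusted p from 0.101 to 0.231). Ambra1 did not pass without poly I:C replicate 1 (0.126), poly I:C replicate 2 (0.162) or PAM replicate 1 (0.17, adjusted p = 0.277), and Pik3c3 did not pass without PAM replicate 1 (0.29, adjusted p = 0.0583).

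**Figure D3:**
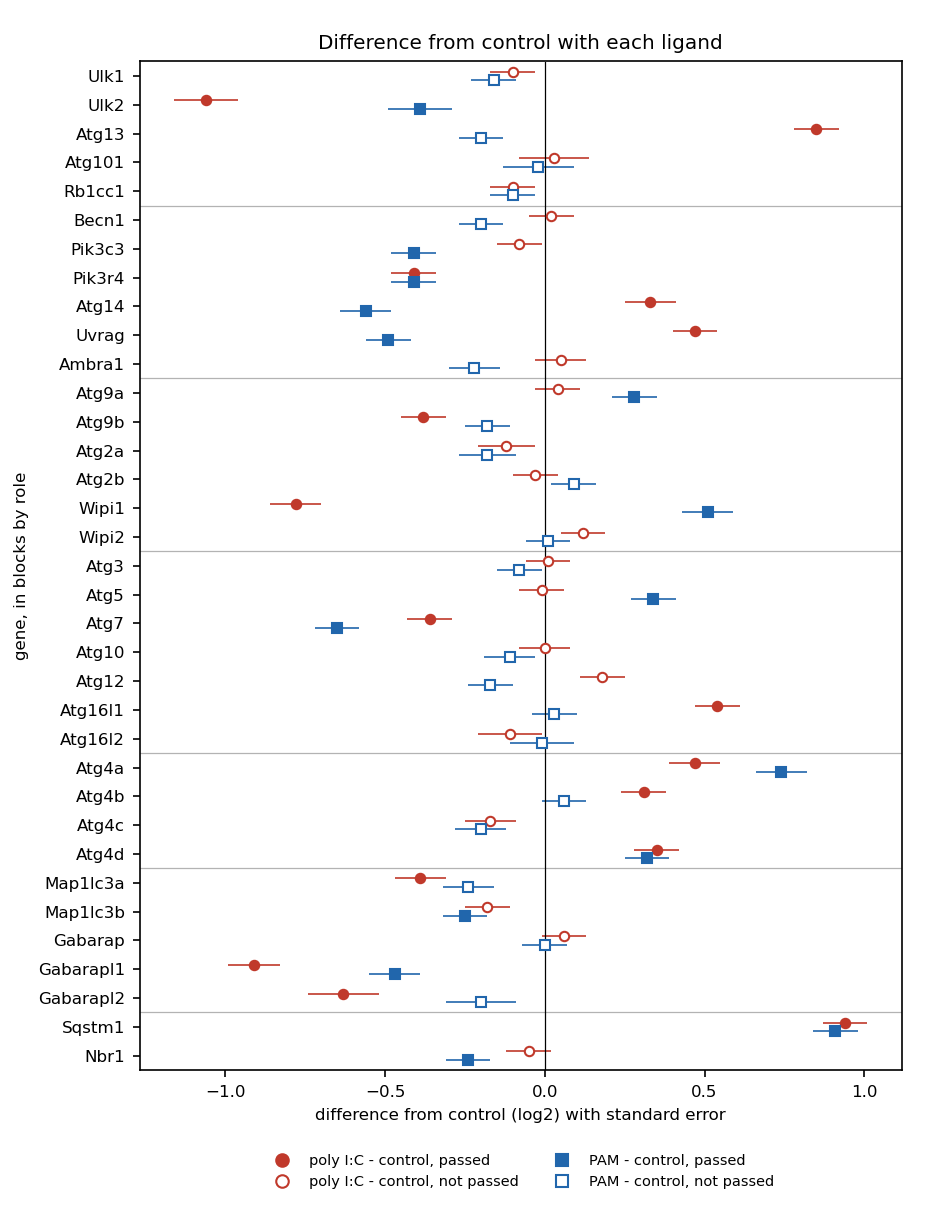
Difference from control in log2 with its standard error for each autophagy gene (rows, in blocks by role), with poly I:C as red circles and PAM as blue squares; filled symbols passed an adjusted p of 0.05. Uvrag and Atg14 lie to the right of 0 with poly I:C and to the left with PAM, Wipi1 lies the other way, and the symbols of Sqstm1 nearly coincide at 0.94 and 0.91.

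Among genes that supply membrane, Wipi1 moved in opposite directions with the ligands. WIPI1 binds the lipid made by the class III kinase. Wipi1 stood at 0.09 and -0.09 in controls, -0.74 and -0.82 with poly I:C, and 0.51 on both PAM arrays. The 3 groups were separate, with control between the ligands. It fell with poly I:C (-0.78 ± 0.08, adjusted p = 5.82e-05) and rose with PAM (0.51 ± 0.08, adjusted p = 0.00102). Directly, it was lower with poly I:C than under PAM (-1.29 ± 0.08, PAM 2.45-fold higher, adjusted p = 1.98e-06), and no other autophagy gene differed more between the ligands. Its probe was not at 8 or above on all arrays. Its relative Wipi2, which recruits the ATG16L1 complex, differed by 0.12 with poly I:C and 0.01 with PAM and did not pass.

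The lipid scramblase gene Atg9a rose with PAM, from -0.07 and -0.02 in controls to 0.27 and 0.19 (0.28 ± 0.07, adjusted p = 0.0136), while the poly I:C arrays, at -0.01 and 0.01, lay near control. The call with PAM ended without PAM replicate 1 (0.24, adjusted p = 0.116), and the direct difference between ligands (-0.23, adjusted p = 0.0262) did not pass without any 1 of the 4 ligand arrays (0.0615 to 0.179). Its paralog Atg9b fell with poly I:C, from 0.23 and 0.13 in controls to -0.17 and -0.22 (-0.38 ± 0.07, adjusted p = 0.00362), and the PAM arrays stood between at 0.06 and -0.06. The Atg9b probe was not at 8 or above on all arrays. Atg2a and Atg2b encode lipid transfer proteins and passed in no comparison, with differences from control of -0.12 and -0.03 with poly I:C and -0.18 and 0.09 with PAM. Without control replicate 1, Atg2a passed with poly I:C (-0.24, adjusted p = 0.0395) and with PAM (-0.30, adjusted p = 0.0193).

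In the conjugation systems, Atg7 fell with both ligands. ATG7 is the E1-like enzyme that activates both ATG12 and the LC3 family. Atg7 stood at 0.31 and 0.41 in controls, 0.03 and -0.03 with poly I:C, and -0.32 and -0.25 with PAM, 3 separate ranges with PAM lowest. The fall was -0.36 ± 0.07 with poly I:C (adjusted p = 0.00374) and -0.65 ± 0.07 with PAM (control 1.57-fold higher, adjusted p = 0.000125). The difference between the ligands (0.29, adjusted p = 0.0124) did not pass without poly I:C replicate 1 (0.087 as adjusted p) or PAM replicate 1 (0.0965). Atg16l1, which targets the conjugating complex to the membrane, rose with poly I:C. It stood at -0.02 and -0.07 in controls, 0.52 and 0.46 with poly I:C, and -0.05 and 0.02 with PAM, so that control and PAM arrays overlapped below poly I:C. The rise was 0.54 ± 0.07 (1.45-fold, adjusted p = 0.000238) and the difference from PAM 0.51 ± 0.07 (adjusted p = 0.000358).

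Atg5 and Atg12 encode the parts of the conjugate that works with ATG16L1, and they did not move together. Atg5 stood at 0.00 and -0.04 in controls, 0.00 and -0.07 with poly I:C, and 0.27 and 0.36 with PAM, where only PAM stood apart. It rose with PAM (0.34 ± 0.07, adjusted p = 0.00546; 0.0561 without PAM replicate 2) and was lower with poly I:C than under PAM by 0.35 on the log2 scale (adjusted p = 0.00369). Atg12 stood at -0.01 and 0.01 in controls, 0.20 and 0.16 with poly I:C, and -0.12 and -0.22 with PAM. Neither difference from control passed (0.18, adjusted p = 0.0763, and -0.17, adjusted p = 0.105), but the ligands differed (0.35 ± 0.07, adjusted p = 0.00335). The E2-like enzyme genes Atg3 (0.01 and -0.08) and Atg10 (0.00 and -0.11) and the paralog Atg16l2 (-0.11 and -0.01) did not pass with poly I:C or PAM. Without control replicate 2, Atg16l2 passed with poly I:C (-0.27, adjusted p = 0.0322).

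Genes of the ATG4 proteases, which trim LC3 and GABARAP proteins for conjugation and release them from membranes, rose where they changed from control. With poly I:C 3 of 4 rose (12.1% of all genes) and with PAM 2 of 4 (11.0% of all genes). Atg4a stood at -0.53 and -0.40 in controls, -0.06 and 0.06 with poly I:C, and 0.25 and 0.29 with PAM, in 3 separate ranges. The rise was 0.47 ± 0.08 with poly I:C (adjusted p = 0.00125) and 0.74 ± 0.08 with PAM (1.67-fold, adjusted p = 8.93e-05), and its 2 probes gave 0.47 and 0.47, and 0.75 and 0.72. Both probes carry the same transcript accessions, so a signal shared with a near-identical copy cannot be told apart. Atg4d rose with both ligands, from -0.32 and -0.26 to 0.13 and -0.02 with poly I:C (0.35 ± 0.07, adjusted p = 0.00521) and 0.04 and 0.02 with PAM (0.32 ± 0.07, adjusted p = 0.0102). The call with PAM ended without PAM replicate 1. The Atg4d probe was not at 8 or above on all arrays. Atg4b, the most active of the family on LC3, rose with poly I:C, from -0.12 and -0.02 to 0.25 and 0.23 (0.31 ± 0.07, adjusted p = 0.00737), and the PAM arrays stood at -0.04 and 0.02. Atg4c differed by -0.17 and -0.20 and did not pass, except without control replicate 1 (adjusted p = 0.0317 with poly I:C and 0.0261 with PAM). Between the ligands Atg4a was lower (-0.27, adjusted p = 0.0249) and Atg4b higher (0.25, adjusted p = 0.0217) with poly I:C. The first did not pass without poly I:C replicate 1 (0.172), PAM replicate 1 (0.0834) or PAM replicate 2 (0.134), and the second without any 1 of the 4 ligand arrays (0.0643 to 0.143).

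The LC3 and GABARAP genes, whose products are joined to lipid on the growing membrane, fell where they changed from control. With poly I:C 3 of 5 fell (18.2% of all genes), with PAM 2 of 5 (14.0% of all genes), and none rose by limma. Gabarapl1 stood at 0.40 and 0.55 in controls, -0.46 and -0.41 with poly I:C, and -0.05 and 0.05 with PAM. The groups were separate, with control highest and poly I:C lowest. The fall was -0.91 ± 0.08 with poly I:C (control 1.88-fold higher, adjusted p = 1.95e-05) and -0.47 ± 0.08 with PAM (adjusted p = 0.00149), and the ligands differed by -0.43 ± 0.08 (adjusted p = 0.00198). Gabarapl2 stood at 0.21 and 0.19 in controls, -0.61 and -0.25 with poly I:C, and 0.00 on both PAM arrays. It fell with poly I:C (-0.63 ± 0.11, adjusted p = 0.0017) and differed by -0.20 with PAM (adjusted p = 0.247). The spread between the poly I:C arrays came from 1 of its 2 probes, which read -0.79 and -0.09 there, while the other read -0.43 and -0.40. Fitted singly with limma, the former did not pass between the ligands (-0.44, adjusted p = 0.115), and the latter did (-0.42, adjusted p = 0.000953). The former was not at 8 or above on all arrays, whereas the latter was. Where in the genome each probe lies was not examined, so a signal shared with a near-identical copy cannot be told apart. The difference of Gabarapl2 between the ligands (-0.43, adjusted p = 0.0143) did not pass without poly I:C replicate 1 (-0.25, adjusted p = 0.0691), PAM replicate 1 (0.0626) or PAM replicate 2 (0.0686).

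Map1lc3a stood at 0.25 and 0.23 in controls, -0.07 and -0.23 with poly I:C, and 0.05 and -0.05 with PAM. The Map1lc3a probe was not at 8 or above on all arrays. Both ligands lay below control, and the fall with poly I:C passed (-0.39 ± 0.08, adjusted p = 0.00404), while that with PAM was just short of it (-0.24 ± 0.08, adjusted p = 0.0515; 0.041 with the replicate number as a block). Map1lc3b, the gene of the LC3 form most used as an autophagy marker, stood at 0.19 and 0.15 in controls, 0.06 and -0.07 with poly I:C, and -0.06 and -0.09 with PAM. It fell with PAM (-0.25 ± 0.07, adjusted p = 0.0306) and differed by -0.18 with poly I:C (adjusted p = 0.0918). The call with PAM ended without any 1 of the 4 control and PAM arrays (difference -0.27 to -0.23). When probes were fitted singly with limma, 1 of its 2 probes passed with PAM (-0.27, adjusted p = 0.0176) and the other did not (-0.23, adjusted p = 0.0591). The former also passed with poly I:C (-0.22, adjusted p = 0.0373), and the latter did not (-0.14, adjusted p = 0.215). For these probes too, the position in the genome was not examined. Gabarap was the exception in the family, with differences of 0.06 with poly I:C and 0.00 with PAM and 95% intervals from -0.08 to 0.21 and from -0.15 to 0.15.

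In all, 24 of the 35 genes passed in at least 1 of the 3 comparisons, and 11 in none: Ulk1, Atg101, Rb1cc1, Atg2a, Atg2b, Wipi2, Atg3, Atg10, Atg16l2, Atg4c and Gabarap. The differences of these 11 lay between -0.20 and 0.12, with 95% intervals inside -0.37 to 0.31. All probes of 7 of the 11 were at 8 or above on all arrays, as were those of 18 of the 24. How many of all 19935 genes passed in at least 1 comparison was not counted, so the 24 of 35 cannot be judged against it. Taken singly, the comparisons called 6059 of all genes with poly I:C, 4983 with PAM and 5725 between the ligands.

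Other genes of the pathway were counted in 6 lists that hold none of the members. Their counts stand against 12.1% of all genes higher and 18.2% lower with poly I:C, and 11.0% and 14.0% with PAM. No list was itself tested, and the lists were not matched to all genes for signal level. Among selective receptors and mitophagy genes, 8 of 12 fell (66.7%) and 1 rose (8.33%) with poly I:C (median difference -0.58, against 0.01 over all genes), and 4 fell and 2 rose with PAM (median -0.07). Retreg1, a receptor for degradation of endoplasmic reticulum, fell with poly I:C (-1.19 ± 0.08, adjusted p = 3.78e-06) and differed by -0.12 with PAM. Pink1, the kinase that marks damaged mitochondria, fell with poly I:C (-1.11 ± 0.08) and PAM (-0.88 ± 0.08), and Calcoco1 fell too (-0.92 and -0.70). Tax1bp1, a receptor related in function to p62, rose with poly I:C (0.41 ± 0.07, adjusted p = 0.00117). Of the 2 that rose with PAM, 1 remained in number without control replicate 1 and 0 without PAM replicate 1 or 2.

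The list headed regulators of Beclin 1 complexes also holds other autophagy factors, such as Tbk1. It held 3 higher and 5 lower of 13 genes with poly I:C (23.1% and 38.5%, against 12.1% and 18.2% of all genes), and 4 and 4 with PAM (30.8% each, against 11.0% and 14.0%). Tbk1, a kinase that phosphorylates cargo receptors, rose with poly I:C (0.87 ± 0.06, adjusted p = 7.08e-06) and PAM (0.50 ± 0.06, adjusted p = 0.000321). Dapk1, a kinase that acts on Beclin 1, fell with poly I:C (-0.93 ± 0.07) and rose with PAM (0.32 ± 0.07, adjusted p = 0.00903; 0.0767 without PAM replicate 2). Without PAM replicate 2 the genes higher with PAM numbered 2, and without PAM replicate 1 the lower ones numbered 2. Of 10 phagophore growth genes 5 fell (18.2% of all genes) and none rose by limma with poly I:C, led by Tmem41b (-0.54 ± 0.07), a scramblase gene of the endoplasmic reticulum. With PAM 5 fell and 1 rose (2 after quantile normalization), the sorting nexin gene Snx18 (1.18 ± 0.07, adjusted p = 2.74e-06). The 5 lower genes numbered 3 without poly I:C replicate 1 or 2 in the first comparison, and 3 without control replicate 2, PAM replicate 1 or PAM replicate 2 in the second.

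Of 27 nutrient and energy sensing genes, 12 fell and 2 rose with poly I:C (44.4% and 7.41%, against 18.2% and 12.1% of all genes; median -0.14). With PAM 11 fell and 2 rose (40.7% and 7.41%, against 14.0% and 11.0%; median -0.15). Deptor, whose product inhibits mTOR, itself a brake on autophagy, fell with both (-1.25 ± 0.09 and -1.07 ± 0.09). Fnip2, a partner of folliculin, fell with PAM (-1.54 ± 0.09, adjusted p = 2.01e-06) and with poly I:C (-0.31 ± 0.09, adjusted p = 0.0266). Prkag2, a subunit gene of the energy sensor AMPK, fell with poly I:C (-1.16 ± 0.09, adjusted p = 1.14e-05) and PAM (-0.69 ± 0.09, adjusted p = 0.000387). With poly I:C the lower genes numbered 7 without control replicate 2 and 6 without poly I:C replicate 2, and the higher genes numbered 1 without any 1 array except control replicate 2. With PAM the higher genes numbered 0 without control replicate 2, PAM replicate 1 or PAM replicate 2.

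Of 9 transcription factor and regulator genes, 4 fell and 1 rose with poly I:C (44.4% and 11.1%, against 18.2% and 12.1% of all genes). With PAM 2 fell and 1 rose (22.2% and 11.1%, against 14.0% and 11.0%), which is near the share over all genes. Tfeb, a main activator of lysosome and autophagy genes, stood at 0.61 and 0.50 in controls, 0.10 and -0.10 with poly I:C, and -0.70 and -0.57 with PAM. It fell with poly I:C (-0.55 ± 0.09, adjusted p = 0.00116) and PAM (-1.19 ± 0.09, adjusted p = 1.07e-05). Foxo3, a forkhead factor known to activate LC3 family genes, fell with both (-1.18 ± 0.09 and -1.27 ± 0.09). Keap1, which binds p62 and marks the factor NRF2 for degradation, rose with poly I:C (1.11 ± 0.07, adjusted p = 2.48e-06), at 1.14 and 1.07 against 0.04 and -0.04 in controls, and differed by -0.05 with PAM. The 4 lower genes with poly I:C numbered 2 after quantile normalization and with only the 4 arrays compared. Leaving out a PAM array repeats that fit of 4 arrays. Fewer were also called without poly I:C replicate 1 or 2.

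Genes for fusion of autophagosomes with lysosomes held 2 higher and 6 lower of 16 with poly I:C (12.5% and 37.5%, against 12.1% and 18.2% of all genes; median -0.04). With PAM 1 was higher and 9 lower (6.25% and 56.2%, against 11.0% and 14.0%; median -0.27). Tecpr1, a tether between the organelles, fell with PAM (-1.53 ± 0.09, adjusted p = 1.73e-06) and with poly I:C (-0.83 ± 0.09, adjusted p = 7.91e-05). Plekhm1, an adaptor of the same step, stood at 0.04 and 0.09 in controls, 0.11 and -0.04 with poly I:C, and -1.12 and -0.99 with PAM, and fell with PAM (-1.12 ± 0.08, adjusted p = 6.85e-06). Vamp8, a SNARE gene, rose with poly I:C (0.72 ± 0.07) and PAM (0.38 ± 0.07, adjusted p = 0.00442). Directly, 9 of the 16 were higher with poly I:C than under PAM (12.9% of all genes) and 1 was lower (15.8% of all genes). The 9 numbered 5 without poly I:C replicate 1 or PAM replicate 1, the 6 lower with poly I:C numbered 3 without poly I:C replicate 2, and the 2 higher numbered 1 without either poly I:C array.

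**Figure D4:**
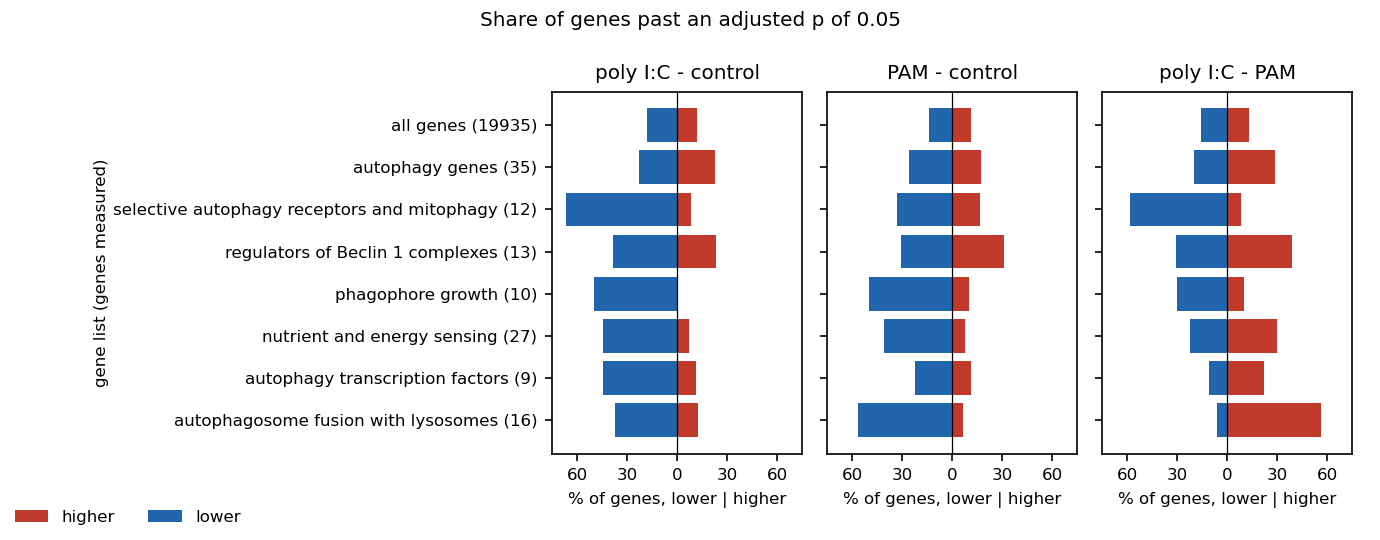
Percent of genes higher (red, right of 0) and lower (blue, left of 0) at an adjusted p under 0.05 in 3 comparisons, for all genes, the 35 autophagy genes and 6 lists of other pathway genes, with the number measured in brackets. Autophagy genes stand at 22.9% higher and 22.9% lower with poly I:C, against 12.1% and 18.2% of all genes.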

How the data were processed

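Biotin-labelled cRNA was measured on an Affymetrix array, per the labels' protocols. The authors deposited 28815 probes on 6 arrays as values taken here as log2; summarization, background correction, normalization and the base of the logarithm: not given in the sources used here. Each probe's median had been subtracted (largest remaining median 5e-07), which leaves differences between arrays intact. Gene symbols came from GEO's platform annotation, which gave 21780 probes 1 symbol, 1605 several and 5430 none. Probes of a gene were averaged, and all 39 autophagy probes kept their symbols in a current gene table.

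A mean per group was fitted over all 6 arrays with limma 3.58.1 (R 4.3.3; lmFit and eBayes, 3 residual and 5.68 prior degrees of freedom), with Benjamini-Hochberg adjustment over 19935 genes. The script was tested on simulated data. Tables used Python 3.11.15 with numpy 2.4.6, pandas 2.3.3 and scipy 1.17.1; figures used matplotlib 3.10.9. Promoters came from a RefSeq table.

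The members and gene lists were chosen with earlier results of these data known. Array values are printed for members past the threshold, except Becn1 and Ambra1. For other lists, at most 3 genes per list, direction and comparison with separate groups could be named, by size. Alternatives were array centring, quantile normalization, robust fitting, the 4 arrays compared, a replicate block, single probes, all probes, stricter thresholds and leaving out each array. For a gene with several probes, the single-probe and all-probe alternatives took the probe with the smallest p, which favours a call. Alternatives for the wider lists were added after seeing the data.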

Additional observations from a re-analysis of the deposited data

How the results depend on the processing

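Over 15 alternatives, none of the 48 differences called among the autophagy genes changed sign where called, and 14 kept their call in all 15. The 1.5-fold cutoff, applied to the main fit, by itself removed 34 of the 48. The 14 are therefore the calls of at least 1.5-fold in the main fit, and this number mostly restates the size of the differences. The 15 alternatives are not all distinct. For each comparison, leaving out either array of the third group repeats the fit of the 4 arrays compared. With at least 1.5-fold also required, the poly I:C counts dropped to 2 (up) and 4 (down), those of PAM to 2 and 1, and between the ligands 3 and 2, since most changes were smaller. Over all 19935 genes, both directions together held 2261, 1839 and 2210 genes at this cutoff, in the same order. At an adjusted p under 0.01 the direct comparison held 6 higher and 4 lower genes. The share over all genes at that threshold was not counted. Leaving out 1 array gave 7 to 8 higher and 8 to 10 lower genes with poly I:C, 4 to 6 higher and 6 to 11 lower with PAM, and 5 to 10 higher and 4 to 7 lower between the ligands; the cause was not tested, beyond there being fewer arrays. A group left with 1 array was assumed to vary like the others. With the replicate number as a block, the counts were 8 and 8, 6 and 9, and 9 and 7; of the 48 calls 2 were lost (Nbr1 with PAM, adjusted p = 0.0529, and Becn1 between the ligands, 0.0589) and 1 was gained (Map1lc3a with PAM). The labels leave unsaid whether the replicate numbers pair the samples. Across genes, the differences between replicates correlated at -0.07, 0.15 and -0.01 over the 3 pairs of groups. Such values cannot show whether the samples were paired. Array centring and robust fitting lost 0 calls. The variance trend was not run, because centred values hold no level. Signal over background is unknown.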

Other observations

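Genes of the wider lists were also compared between the ligands in the same direct fit with limma; no list was itself tested. Among selective receptors and mitophagy genes, 7 of 12 were lower with poly I:C than under PAM and 1 was higher, against 15.8% and 12.9% of all genes. Retreg1 was lower (-1.07 ± 0.08, adjusted p = 6.93e-06), and Ncoa4, the receptor for ferritin, was lower (-0.92 ± 0.07), at -0.59 and -0.67 with poly I:C and 0.29 on both PAM arrays. Tax1bp1 was the one higher gene (0.46 ± 0.07, adjusted p = 0.00057). The 7 numbered 4 without PAM replicate 2. Keap1 was higher with poly I:C (1.15 ± 0.07, adjusted p = 1.7e-06), and Tfec, a relative of Tfeb, was lower (-1.08 ± 0.07), at -0.23 on both poly I:C arrays and 0.82 and 0.88 with PAM. In the list headed regulators of Beclin 1 complexes, Trp53inp1, a p53 target, was higher (1.48 ± 0.09, adjusted p = 2.88e-06) and Dapk1 lower (-1.25 ± 0.07, adjusted p = 1.29e-06).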
